A study of Mus musculus with 14 samples.

Results

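Untreated and vehicle-treated mouse leukemic stem cells, both with intact Tcf1 and Lef1, were compared gene by gene. There were 3 libraries titled WT, from untreated sorted cells, and 3 titled DMSO, from cells treated for 6 h with dimethyl sulfoxide, the vehicle. Genes entered where their mean over these 6 libraries reached 1 FPKM (fragments per kilobase per M mapped fragments, a level corrected for gene length and library depth). This held for 11115 of 24463 genes. The study has 14 libraries in 5 groups. The others are untreated dKO cells, which lack Tcf1 and Lef1, and control cells given the prostaglandins PGE1 or PGE2 at 20 µM for 6 h. In every group lineage-negative bone marrow cells were grown in IMDM with serum at 15%, stem cell factor at 50 ng/ml and thrombopoietin at 20 ng/ml. A p210 BCR-ABL retrovirus was added at the start and again at 24 h, and GFP+ cells negative for lineage markers and positive for c-Kit and Sca1 were sorted at 48 h. The labels place the vehicle and drug treatment on leukemic stem cells from control marrow. They do not give mouse strain, age, DMSO concentration, the medium of the 6 h or any second sort. Vehicle, the 6 h of further culture and any batch of sequencing cannot be told apart in this comparison. The labels also do not say whether the replicates came from separate mice or cultures, so p-values measure the spread between these libraries, which may be technical.

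BCR-ABL p210 is the fusion tyrosine kinase of chronic myeloid leukemia; it signals through STAT5, the RAS and MAP kinase pathway and PI3K, and drives Myc, growth and cell division in marrow progenitors. Tcf1 and Lef1 (genes Tcf7 and Lef1) are DNA-binding proteins that act downstream of Wnt and beta-catenin. Well-known stress programmes of cultured cells are AP-1 and the other immediate early genes, NF-kB with its chemokine targets, heat shock genes under HSF1, and antioxidant and iron-handling genes under NRF2.

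In the check of the labels Tcf7 went with the titles. Tcf7 was at 1.48, 1.15 and 1.298 FPKM in the WT libraries and 1.03, 0.8497 and 1.53 in the DMSO libraries, which overlap (two-sided exact permutation test, p = 0.5, where 3 against 3 cannot go below 0.1), against 0.0996 ± 0.0674 (SD) in dKO. Lef1 lay below the minimum level, at 0.283 ± 0.0524 in WT, 0.209 ± 0.0614 in DMSO (exact permutation p = 0.2) and 0.151 ± 0.0411 in dKO. The lowest DMSO libraries overlap dKO in Lef1, so Lef1 does not separate the genotypes here. The genotype field of DMSO replicate 1 names it as deficient in both factors, against its title and against its Tcf7 level of 1.03 FPKM. That library stood apart from its group in another way: its difference from DMSO replicates 2 and 3 was 15.0 and 17.4 times the variance that counting reads would give, against 1.86 times between replicates 2 and 3 and 2.14 to 3.02 times among the WT libraries. The difference ran with gene length. DMSO replicate 1 lay 0.16 (log2) above the other DMSO libraries at the median of the 2780 shortest genes and -0.11 at the median of the 2779 longest. Its part in the differences between groups was tested by leaving it out. Whole reads could be recovered from the FPKM values of all genes with reads. Library totals were 32.1 to 33.2 M reads for WT and 21.4 to 22.7 M for DMSO, of which 19.2 to 19.9 and 12.6 to 13.4 M lay in genes, so depth differs between the groups without overlap. The 2 gated surface genes were present: Kit was at 27.99 ± 0.629 (WT) and 26.1 ± 2.502 FPKM (DMSO), and Ly6a, which encodes Sca1, at 11.3 ± 1.201 and 14.9 ± 2.605.

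Most genes differed by a little and far fewer rose by a lot. Between WT and DMSO 6296 of 11115 genes passed an adjusted p of 0.05 (56.6%), of which 2887 were higher after DMSO (26.0%) and 3409 lower (30.7%). Large differences were nearly all rises: 317 genes were at least 2-fold higher (2.85%) and 8 at least 2-fold lower (0.072%). The levels of 7147 genes did not overlap between the libraries of the groups (64.3%), 3252 being higher and 3895 lower after DMSO. Past an absolute log2 difference of 0.5 there were 1065 genes higher and 505 lower, past 2 there were 64 and 0, and past 3 there were 15 and 0. These sizes were taken on log2(FPKM + 1), where the change of a low gene comes out too small. The genes past 3 include Gm5483, 2010005H15Rik, Gm5416 and BC100530, near-identical entries of the stefin A family that may share reads and need not be separate rises. The direction also went with level. Of the 2779 genes with the lowest mean level 768 rose and 439 fell, and of the 2779 with the highest 610 rose and 1328 fell. The direction went with gene length too. Of the 2780 shortest genes 523 rose and 962 fell, and of the 2779 longest 807 rose and 658 fell. Their median differences were -0.10 and 0.03 (log2), and -0.14 and 0.06 without DMSO replicate 1. Leaving that library out did not remove the trend. Whether gene length had a part in the modest differences of the gene lists was not tested. The median difference over all genes was -0.03 (log2). The minimum level let in 282 genes through the DMSO mean alone and 93 through the WT mean alone, and these had to differ. Of the 317 genes, 102 had a WT mean under 1 FPKM and 108 a WT mean of 5 or more. Among the 102 are Cxcl2, Inhba, Mmp10, Pdpn, Cd80, Traf1, Hspa1a, Hspa1b, Ptgs2, Crem, Stfa1, Stfa2, Gm5416 and BC100530. These genes entered through the DMSO mean, so their calls and their part in list counts follow in part from the minimum level. Zfp709 and Fam171a2 lay just under the minimum (0.9996 and 0.99951 FPKM) and Sfxn5 and Mfap1b just over it (1.00118 and 1.00128). Of the 13348 genes under the minimum, 6363 were listed at 0 in all 6 libraries.

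**Figure D1:**
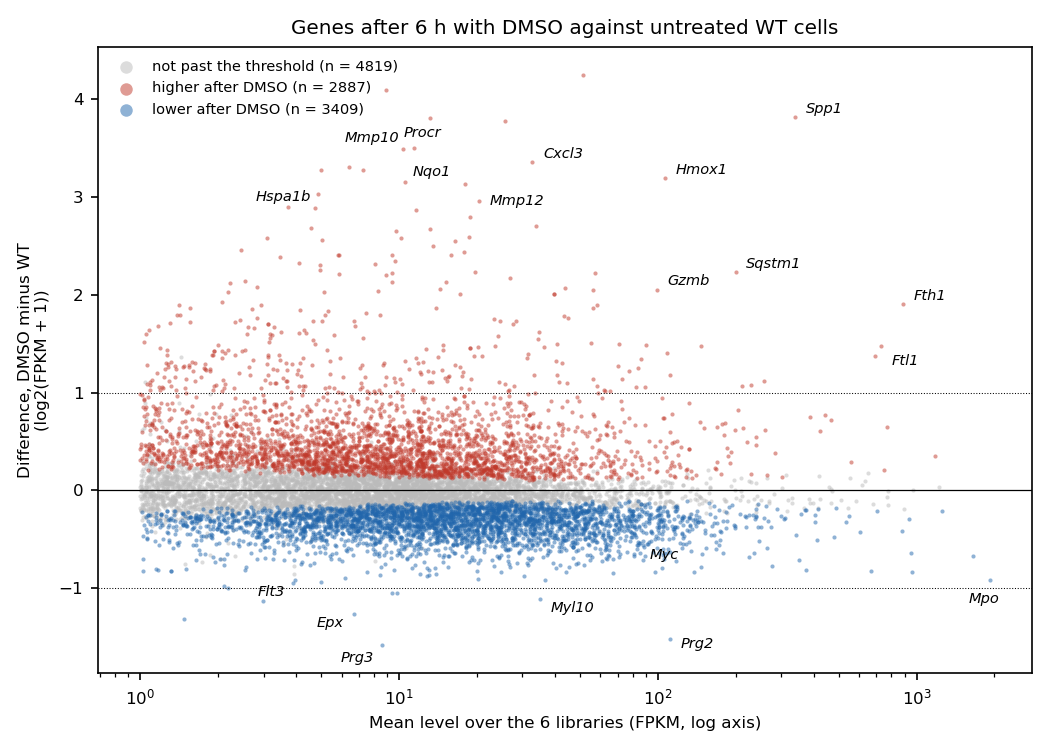
Each point is one of the 11115 genes; the x axis is the mean FPKM over the 6 libraries (log axis) and the y axis the DMSO minus WT difference of log2(FPKM + 1), with dotted lines at 2-fold. Red points (2887) passed the threshold and were higher after DMSO, blue points (3409) were lower, and nearly all genes beyond the dotted lines lie on the upper side.

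Without DMSO replicate 1 the count was 7200, of which 6119 were among the 6296, every one in the same direction, and 325 genes were at least 2-fold higher. In 324 of those 325 genes DMSO replicate 1 itself lay above all WT libraries, with a median difference from the WT mean of 1.31 (log2) against 1.38 in DMSO replicates 2 and 3. Leaving out each library in turn gave 5293 to 7200 genes, and 4805 genes passed every time. The WT libraries may be technical repeats, so the fit was also run with their mean as 1 sample, an alternative added after seeing the data. That left 2505 genes, all of them among the 6296, with 1383 higher and 1122 lower; 301 of the 317 large rises were still called. Counts for gene lists are given under both treatments of WT where they differ by over 1.5 times. A named call that was lost when the WT mean stood as 1 sample is said to be lost with WT as 1 sample. List counts are to be read against the shares of all genes tested, 26.0% higher and 30.7% lower. Those with WT as 1 sample are to be read against the smaller totals just given.

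**Figure D2:**
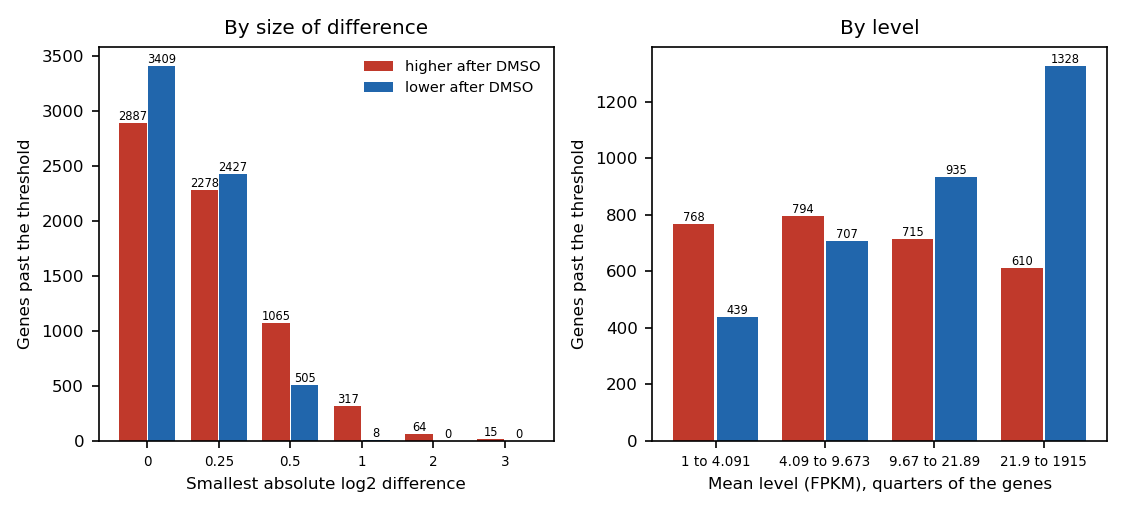
Numbers of genes past the threshold that were higher (red) or lower (blue) after DMSO. Left, genes whose absolute log2 difference reached the value on the x axis, from 2887 and 3409 at 0 to 15 and 0 at 3; right, genes in 4 equal classes of the mean level in FPKM, from 768 and 439 in the lowest to 610 and 1328 in the highest.

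Chemokines and other cytokines were among the largest rises. Spp1 (osteopontin, a secreted phosphoprotein that binds integrins and CD44) was at 45.1, 42.3 and 45.5 FPKM in the WT libraries and 633, 643 and 634 in the DMSO libraries. The groups lay far apart, a 14.4-fold ratio of means (log2 difference 3.82 ± 0.04, adjusted p = 3.3e-09; here and below ± on a log2 difference is the SE and ± on a level the SD of 3 libraries). It made up 0.016% to 0.018% of all FPKM in WT and 0.24% to 0.26% in DMSO. The chemokine Cxcl3, which draws neutrophils through CXCR2, was at 4.43, 5.27 and 5.39 FPKM in WT and 57.1, 61.9 and 62.7 in DMSO (log2 difference 3.35 ± 0.07, adjusted p = 3.9e-08). Its neighbour Cxcl2 was at 0.8497, 0.778 and 0.641 and 9.55, 9.23 and 9.28 FPKM (log2 difference 2.56 ± 0.07, adjusted p = 1.0e-07). Both chemokines were low in every WT library and several-fold higher in every DMSO library. Ccl4, a chemokine of activated macrophages, rose from 8.26 ± 0.706 to 59.5 ± 2.68 FPKM (adjusted p = 5.2e-08). Ccl9, a myeloid ligand of CCR1, went from 77.5 ± 2.58 to 217 ± 1.83 FPKM (adjusted p = 1.4e-07). Inhba, the subunit of activin A, was at 0.457, 0.284 and 0.307 FPKM in WT and 7.26, 9.78 and 10.3 in DMSO (log2 difference 2.89 ± 0.12, adjusted p = 1.1e-06). Over the list of chemokines and cytokines 20 of 25 tested members were higher and 2 lower (19 and 1 with WT as 1 sample), 14 of them at least 2-fold higher, and the median difference was 1.24 (log2). The 2 that fell were Vegfa and Ccl7. Vegfa, the endothelial growth factor, went from 30.99 ± 1.09 to 24.3 ± 1.49 FPKM (adjusted p = 9.9e-04). Ccl7, a ligand of CCR2, went from 6.49 ± 0.134 to 4.98 ± 0.529 FPKM (adjusted p = 0.0052, lost with WT as 1 sample).

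Matrix metalloproteinases of the stromelysin, collagenase and elastase kind rose beside them. Mmp10 (stromelysin-2) was at 1.27, 0.594 and 0.748 FPKM in WT and 19.4, 20.7 and 19.5 in DMSO (log2 difference 3.496 ± 0.12, adjusted p = 4.2e-07). Mmp13 (collagenase-3) was at 2.67, 1.703 and 1.804 and 18.99, 22.7 and 22.03 FPKM (log2 difference 2.87 ± 0.12, adjusted p = 1.1e-06). Mmp12 (macrophage elastase) was at 4.16, 3.898 and 3.603 and 38.2, 37.001 and 35.9 FPKM (log2 difference 2.96 ± 0.06, adjusted p = 3.8e-08). No WT library reached the lowest DMSO library in any of the 3 genes. Plaur, the urokinase receptor, went from 43.2 ± 0.891 to 88.2 ± 2.64 FPKM (log2 difference 1.01 ± 0.04, adjusted p = 8.5e-07). In the matricellular list 13 of 21 members were higher and 2 lower (11 and 0 with WT as 1 sample), and the median was 0.42. Vim, the intermediate filament vimentin, went from 386 ± 13.7 to 1002 ± 25.7 FPKM (adjusted p = 8.5e-07). Anxa2, annexin A2, went from 147 ± 2.78 to 312 ± 13.2 FPKM (adjusted p = 1.5e-06). Thbs1 (thrombospondin-1), the other way, was at 449, 428 and 444 FPKM in WT and 348, 378 and 386 in DMSO (log2 difference -0.25 ± 0.06, adjusted p = 0.006, lost with WT as 1 sample).

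Genes for membrane proteins rose as well, and some for granule and cytosolic proteins. Procr and Pdpn are not in the list of activation and costimulatory proteins counted below. Procr, the endothelial protein C receptor (EPCR, CD201), used as a marker of hematopoietic stem cells, was at 1.12, 0.996 and 0.902 FPKM in WT and 20.8, 22.2 and 22.3 in DMSO, a 21.6-fold ratio (log2 difference 3.505 ± 0.06, adjusted p = 3.5e-08). Pdpn (podoplanin) was at 0.9202, 0.451 and 0.318 and 13.4, 14.8 and 13.8 FPKM (log2 difference 3.28 ± 0.13, adjusted p = 8.1e-07). Gzmb, the cytotoxic protease granzyme B, already expressed in WT, went from 38.1 ± 2.69 to 161 ± 5.96 FPKM (log2 difference 2.05 ± 0.06, adjusted p = 1.3e-07). Tnfrsf9 (4-1BB, a costimulatory receptor) rose from 4.62 ± 0.768 to 32.7 ± 1.75 FPKM (log2 difference 2.59 ± 0.09, adjusted p = 5.5e-07). Cd80 (B7-1) went from 0.934 ± 0.151 to 3.25 ± 0.431 FPKM (log2 difference 1.13 ± 0.10, adjusted p = 5.7e-05). In this list of activation and costimulatory proteins 8 of 9 tested members were higher and 1 lower (5 and 0 with WT as 1 sample), with a median of 0.68. Uchl1, a ubiquitin hydrolase of neurons, rose from 2.9003 ± 0.468 to 33.1 ± 2.12 FPKM (log2 difference 3.13 ± 0.09, adjusted p = 1.6e-07). Stfa1 and Stfa2, cysteine protease inhibitors of the stefin A family that lie in a cluster of near-identical copies, went from 0.342 ± 0.0849 to 12.4 ± 2.59 FPKM and from 0.1205 ± 0.151 to 9.89 ± 1.44 FPKM. Reads can be shared between such copies, so the values of single stefin genes are uncertain.

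**Figure D3:**
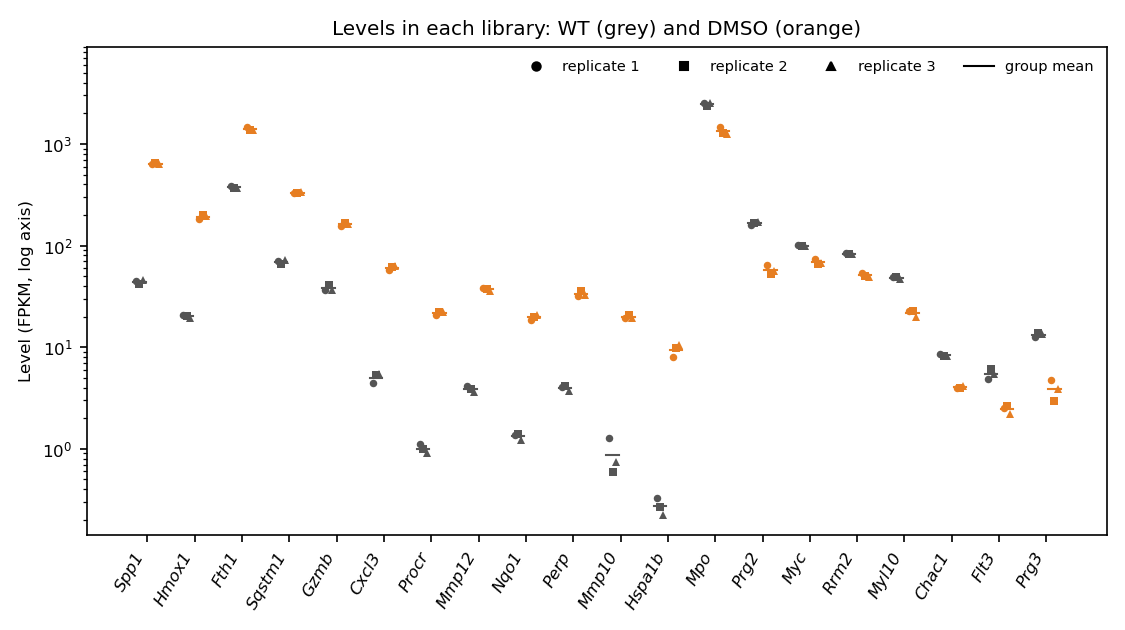
FPKM (log axis) of 20 genes in each of the 3 WT (grey) and 3 DMSO (orange) libraries, with a short line at each group mean and symbols for the replicate number. From Spp1 to Hspa1b every DMSO library lies above every WT library, and from Mpo to Prg3 every DMSO library lies below.

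Short stretches upstream of the start sites of genes that rose strongly held letters that known DNA-binding proteins recognise. RefSeq promoters of build GRCm38.p6, which is later than the files' mm9, were matched by symbol, and 250 bases before each start were searched on both strands for 8396 of the 11115 genes and 213 of the 317. The AP-1 motif TGACTCA or TGAGTCA was in 15.96% of those 213 promoters, in 3.94% of all promoters tested, in 3.14% of those of genes that fell, and in 5.16% of all 27025 promoters in the table. The NF-kB site was in 11.74% against 5.3% (4.46% of all promoters in the table). TATAAA was in 18.78% against 7.36% (14.33% in the table), and the GC box GGGCGG in 48.83% against 64.72% (35.36% in the table). The antioxidant response element core TGACNNNGC, which can overlap AP-1, was in 16.9% against 14.2% (11.52%), and a heat shock pair GAANNTTC in 8.92% against 6.07% (7.73%). Also searched were the cAMP response element TGACGTCA (2.82% against 3.19%, 1.77% in the table) and its short form TGACG (21.13% against 31.96%, 19.79%), the E-box CACGTG (6.1% against 10.34%, 6.86%), the hypoxia core ACGTG (16.43% against 25.94%, 18.49%) and the CArG box (1.41% against 1.33%, 1.62%). The short forms also match inside the longer motifs. The antioxidant and heat shock motifs were added after the data had been seen. The shares are descriptions, and a match is not a bound site. The 317 genes include the 102 that entered through the DMSO mean alone. The windows below belong to 8 genes with large rises, chosen because their promoters carry a match; each reads 5′ to 3′ on the gene's strand, and capitals mark the match.
Procr (chr2:155751027-155751106, + strand; AP-1 and antioxidant core overlapping, at -154 from the start): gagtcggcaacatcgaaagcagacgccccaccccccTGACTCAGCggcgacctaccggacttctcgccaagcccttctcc
Srxn1 (chr2:152105404-152105523, + strand; AP-1 at -102 and -45): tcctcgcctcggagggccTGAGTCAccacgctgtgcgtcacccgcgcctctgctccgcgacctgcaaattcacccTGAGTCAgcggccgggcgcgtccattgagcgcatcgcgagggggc
Mmp10 (chr9:7502262-7502341, + strand; AP-1 at -63): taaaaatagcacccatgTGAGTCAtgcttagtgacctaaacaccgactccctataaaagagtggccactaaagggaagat
Mmp12 (chr9:7347294-7347373, + strand, upstream of 1 of its 2 listed starts; AP-1 at -44): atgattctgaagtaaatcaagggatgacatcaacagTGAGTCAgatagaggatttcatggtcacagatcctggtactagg
Mmp13 (chr9:7272434-7272513, + strand; AP-1 at -35): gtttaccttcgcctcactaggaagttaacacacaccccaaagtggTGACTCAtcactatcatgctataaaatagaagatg
Cxcl3 (chr5:90786001-90786080, + strand; NF-kB site, 2 matches overlapping by all but 1 base, at -73 and -72): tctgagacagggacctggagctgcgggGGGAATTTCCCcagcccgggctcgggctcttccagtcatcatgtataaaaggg
Cxcl2 (chr5:90903779-90903858, + strand; NF-kB site, likewise at -97 and -96): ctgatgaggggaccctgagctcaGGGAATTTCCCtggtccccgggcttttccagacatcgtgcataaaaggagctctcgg
Hspa1b (chr17:34959289-34959368, - strand; heat shock pair at -104): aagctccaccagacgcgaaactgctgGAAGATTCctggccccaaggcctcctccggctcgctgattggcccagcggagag
The 3 metalloproteinase windows hold AP-1 letters within 63 bases of the start, and the Cxcl3 and Cxcl2 windows share the same 11 letters of an NF-kB match.

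Antioxidant and iron genes under NRF2 rose together. NRF2 is held down by KEAP1 and when released drives genes for glutathione synthesis, quinone reduction, heme breakdown and iron storage. Hmox1 (heme oxygenase-1, which breaks down heme) was at 20.6, 20.4 and 19.4 FPKM in WT and 182, 199 and 197 in DMSO, a 9.58-fold ratio (log2 difference 3.197 ± 0.05, adjusted p = 1.4e-08). Nqo1 (a quinone reductase) was at 1.36, 1.39 and 1.22 and 18.4, 19.7 and 20.96 FPKM (log2 difference 3.15 ± 0.07, adjusted p = 3.9e-08). Every DMSO library was several-fold above every WT library in both genes. Gclm, the modifier subunit of the glutathione-synthesis enzyme, rose from 23.98 ± 0.785 to 92.2 ± 4.36 FPKM (log2 difference 1.899 ± 0.05, adjusted p = 8.7e-08). Srxn1 (sulfiredoxin) went from 9.097 ± 0.612 to 44.5 ± 2.72 FPKM (log2 difference 2.17 ± 0.06, adjusted p = 1.5e-07). Slc7a11, the cystine importer, counted here under the ATF4 list, rose from 1.92 ± 0.129 to 17.6 ± 3.63 FPKM (log2 difference 2.65 ± 0.13, adjusted p = 2.7e-06). The iron store ferritin was among the most abundant messages to rise: Fth1, its heavy chain, was at 382, 370.4 and 368 FPKM in WT and 1475, 1367 and 1376 in DMSO (log2 difference 1.91 ± 0.06, adjusted p = 1.8e-07). Together Fth1 and Ftl1 made up 0.29% of all FPKM in WT and 0.96% to 1.01% in DMSO; both have many pseudogene copies. In the list 18 of 21 members were higher and 2 lower (15 and 0 with WT as 1 sample), against 26.0% and 30.7% of all genes tested, 10 were at least 2-fold higher, and the median was 0.82. The 2 lower members, Tkt and Gsr, fell by 0.19 and 0.11 (log2) and lost their call when a library was left out and with WT as 1 sample. Sqstm1 (p62, an autophagy receptor and NRF2 target, named after its values were seen) went from 69.7 ± 2.99 to 331 ± 8.59 FPKM (log2 difference 2.23 ± 0.05, adjusted p = 3.9e-08).

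Heat shock genes split into 2 parts. The inducible Hsp70 genes Hspa1a and Hspa1b, near-identical copies whose reads cannot be told apart with certainty, were nearly off in WT: Hspa1b was at 0.327, 0.266 and 0.225 FPKM in WT and 7.97, 9.904 and 10.4 in DMSO (log2 difference 3.03 ± 0.10, adjusted p = 2.8e-07). Hspa1a was at 0.0877, 0.0446 and 0.216 and 6.38, 7.55 and 8.13 FPKM (log2 difference 2.902 ± 0.10, adjusted p = 4.2e-07). The co-chaperone Bag3 rose from 8.78 ± 0.637 to 13.9 ± 0.688 FPKM (log2 difference 0.61 ± 0.06, adjusted p = 1.2e-04). Hsph1 went from 39.3 ± 0.98 to 46.9 ± 1.45 FPKM (adjusted p = 0.0014, lost with WT as 1 sample). The abundant chaperones went the other way: the mitochondrial Hspd1 (Hsp60) was at 75.7, 76.2 and 77.2 FPKM in WT and 52.6, 48.8 and 48.6 in DMSO (log2 difference -0.60 ± 0.04, adjusted p = 2.1e-05). Hsp90ab1 went from 1031 ± 12.6 to 844 ± 31.8 FPKM (adjusted p = 0.0035, lost with WT as 1 sample). In all, 4 of 18 members were higher and 9 lower (3 and 3 with WT as 1 sample), with a median of -0.14. Of the metallothioneins, metal-binding proteins, Mt2 rose from 16.8 ± 1.04 to 46.01 ± 4.999 FPKM (log2 difference 1.396 ± 0.08, adjusted p = 5.7e-06). Mt1 was at 298 ± 5.64 and 306 ± 40.6 FPKM (adjusted p = 0.81). It turned direction without DMSO replicate 1, at -0.08 (log2, adjusted p = 0.024).

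NF-kB subunits, inhibitors and targets were nearly all higher. The subunits pair in the cytoplasm with IkB inhibitors, and several of the inhibitors are themselves targets. All 17 members passed, 16 higher and 1 lower, with a median of 0.52; with WT as 1 sample 11 were higher. Relb was at 2.01, 2.04 and 1.81 FPKM in WT and 6.26, 5.905 and 7.54 in DMSO (log2 difference 1.35 ± 0.09, adjusted p = 1.3e-05). Nfkb2 rose from 8.96 ± 0.548 to 21.1 ± 1.03 FPKM (log2 difference 1.15 ± 0.06, adjusted p = 3.0e-06). Nfkb1, the most abundant subunit gene of the list, rose by less, from 40.7 ± 1.28 to 51.02 ± 3.095 FPKM (log2 difference 0.32 ± 0.05, adjusted p = 0.0014, lost with WT as 1 sample). The inhibitor gene Nfkbia was at 14.6, 16.9 and 15.1 and 31.8, 28.5 and 33.1 FPKM (log2 difference 0.96 ± 0.07, adjusted p = 2.4e-05). Tnip1, a partner of the A20 brake, went from 15.7 ± 0.223 to 23.9 ± 1.25 FPKM (adjusted p = 4.5e-05). The adaptor Traf1 went from 0.737 ± 0.109 to 4.905 ± 0.485 FPKM (log2 difference 1.76 ± 0.09, adjusted p = 2.5e-06). Sod2 (mitochondrial superoxide dismutase, also an NF-kB target) was the one member that fell, from 20.3 ± 0.455 to 15.97 ± 0.459 FPKM (log2 difference -0.33 ± 0.04, adjusted p = 4.0e-04).

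AP-1 and the immediate early genes, which transcription switches on within minutes of a stimulus, did not move in 1 direction. Atf3 was at 7.001, 6.85 and 6.23 FPKM in WT and 18.3, 17.2 and 18.9 in DMSO (log2 difference 1.31 ± 0.06, adjusted p = 1.5e-06). Fosl2 rose from 5.74 ± 0.205 to 13.6 ± 1.51 FPKM (log2 difference 1.11 ± 0.08, adjusted p = 1.9e-05). Jund, the most abundant AP-1 subunit of the list, went from 166 ± 3.91 to 259 ± 25.9 FPKM (log2 difference 0.64 ± 0.07, adjusted p = 2.0e-04). Jun went from 21.3 ± 0.756 to 31.7 ± 1.02 FPKM (log2 difference 0.56 ± 0.05, adjusted p = 3.6e-05). Fos itself was high in untreated cells, at 152, 154 and 158 FPKM, and fell to 131, 106 and 116 in DMSO (log2 difference -0.39 ± 0.07, adjusted p = 0.0024, lost with WT as 1 sample). Fosb was at 105 ± 1.304 in WT and 117 ± 8.53 in DMSO, a call lost when a library was left out and with WT as 1 sample. Of 10 AP-1 subunits 7 were higher and 2 lower (median 0.29; 4 and 0 with WT as 1 sample). In the wider immediate early list 12 of 20 were higher and 5 lower, with a median of 0.43 (12 and 2 with WT as 1 sample). Ier5 rose from 10.3 ± 0.376 to 30.2 ± 0.265 FPKM (adjusted p = 1.7e-07). Plk2, a polo-like kinase, rose from 2.302 ± 0.302 to 8.89 ± 0.425 FPKM (adjusted p = 2.6e-06). Trib1, a pseudokinase that aids degradation of C/EBP-alpha, rose from 4.63 ± 0.775 to 12.8 ± 1.02 FPKM (log2 difference 1.303 ± 0.10, adjusted p = 2.9e-05). Egr1, by contrast, went from 118 ± 4.38 to 91.9 ± 12.5 FPKM (log2 difference -0.36 ± 0.09, adjusted p = 0.008, lost with WT as 1 sample). Nr4a1, an orphan nuclear receptor, went from 4.22 ± 0.268 to 2.35 ± 0.138 FPKM (log2 difference -0.64 ± 0.07, adjusted p = 1.5e-04). Klf2 went from 26.8 ± 0.0991 to 21.2 ± 2.47 FPKM (adjusted p = 0.0056, lost with WT as 1 sample). Myc, also counted there, was at 102, 98.9 and 99.3 FPKM in WT and 72.98, 66.3 and 67.1 in DMSO (log2 difference -0.53 ± 0.05, adjusted p = 5.6e-05), lower in every DMSO library.

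Brakes on MAP kinase signalling were mostly higher. Dusp1, a nuclear phosphatase for p38, JNK and ERK, was at 19.3, 18.9 and 18.1 FPKM in WT and 51.9, 53.4 and 55.99 in DMSO (log2 difference 1.47 ± 0.05, adjusted p = 2.1e-07). Dusp5, specific to ERK, rose from 18.4 ± 0.511 to 34.2 ± 1.86 FPKM (log2 difference 0.86 ± 0.05, adjusted p = 6.4e-06). Spry2 (sprouty-2) went from 8.06 ± 0.0679 to 13.4 ± 1.096 FPKM (log2 difference 0.66 ± 0.06, adjusted p = 7.2e-05). Of 13 members 8 were higher and 4 lower, with a median of 0.54 (7 and 0 with WT as 1 sample). Those that fell were small changes in Spred2, Dusp2, Spry1 and Dusp7, each lost with WT as 1 sample, for example Spred2 from 10.98 ± 0.378 to 8.53 ± 0.802 FPKM (log2 difference -0.33 ± 0.07, adjusted p = 0.0038, lost with WT as 1 sample). In the cytoskeletal list of SRF and its actin-regulated cofactor MRTF 10 of 15 members were higher and 0 lower (median 0.36). Myh9, nonmuscle myosin, went from 139 ± 3.803 to 224 ± 19.2 FPKM (log2 difference 0.69 ± 0.07, adjusted p = 8.0e-05). Actb, beta-actin, went from 1037 ± 20.2 to 1325 ± 61.9 FPKM (log2 difference 0.35 ± 0.06, adjusted p = 0.002, lost with WT as 1 sample).

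Interferon-stimulated genes were higher in nearly every case. Isg15, a ubiquitin-like antiviral protein, was at 4.67, 4.62 and 5.83 FPKM in WT and 26.7, 23.999 and 25.5 in DMSO (log2 difference 2.13 ± 0.08, adjusted p = 7.7e-07). Rsad2 (viperin) was at 1.43, 1.48 and 1.31 and 7.54, 9.59 and 9.43 FPKM (log2 difference 2.03 ± 0.09, adjusted p = 1.6e-06). Gbp2, a GTPase induced by interferon gamma, rose from 2.56 ± 0.0107 to 10.8 ± 0.227 FPKM (log2 difference 1.73 ± 0.05, adjusted p = 1.7e-07). Oas3, which makes the activator of RNase L, went from 3.94 ± 0.132 to 7.48 ± 0.151 FPKM (log2 difference 0.78 ± 0.05, adjusted p = 1.6e-05). The signal transducer Stat2 went from 5.33 ± 0.0811 to 10.2 ± 0.246 FPKM (log2 difference 0.83 ± 0.05, adjusted p = 6.9e-06). In all, 26 of 30 members were higher and 2 lower (21 and 0 with WT as 1 sample), with a median of 0.68; 5 were at least 2-fold higher. Those that fell were immunoproteasome subunits. Psmb8 went from 190.1 ± 5.54 to 139 ± 19.3 FPKM (adjusted p = 0.0027, lost with WT as 1 sample). Psmb9 went from 77.1 ± 0.951 to 58.5 ± 8.04 FPKM (adjusted p = 0.0043, lost with WT as 1 sample).

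Feedback genes of cytokine signalling rose while several STAT5 targets of growth fell. Socs1, which blocks JAK kinases, was at 6.25, 6.45 and 6.15 FPKM in WT and 31.7, 31.8 and 36.1 in DMSO (log2 difference 2.23 ± 0.06, adjusted p = 1.0e-07). Socs3 was at 10.1, 9.49 and 10.9 and 36.3, 36.02 and 37.6 FPKM (log2 difference 1.76 ± 0.05, adjusted p = 1.9e-07). Cish went from 17.2 ± 0.854 to 36.2 ± 1.06 FPKM (log2 difference 1.03 ± 0.05, adjusted p = 2.0e-06). In both SOCS genes the groups were clearly apart. Pim3 and Pim1, kinases downstream of STAT5 that favour survival, went from 24.5 ± 0.443 to 14.6 ± 0.494 FPKM (log2 difference -0.71 ± 0.04, adjusted p = 8.0e-06) and from 183 ± 2.196 to 160.02 ± 4.51 FPKM (adjusted p = 0.0045, lost with WT as 1 sample). Cyclin D2, Ccnd2, went from 61.1 ± 0.656 to 43.6 ± 1.32 FPKM (log2 difference -0.48 ± 0.04, adjusted p = 3.9e-05). The counts were 10 higher and 5 lower of 17 members, with a median of 0.31 (8 and 3 with WT as 1 sample). Receptor chains were mostly higher, 15 of 21 against 4 lower (median 0.34). The beta chain shared by the receptors for IL-3, IL-5 and GM-CSF, Csf2rb, was at 58.4, 58.2 and 60.7 FPKM in WT and 142, 161 and 173 in DMSO (log2 difference 1.404 ± 0.07, adjusted p = 2.7e-06). Its close paralog Csf2rb2, the IL-3-specific beta chain, was at 14.9, 16.9 and 16.6 and 61.8, 75.01 and 77.4 (log2 difference 2.08 ± 0.09, adjusted p = 1.1e-06). Reads shared by these paralogs could blur their values. Flt3, the receptor of lymphoid and multipotent progenitors, was at 4.899, 6.13 and 5.47 FPKM in WT and 2.51, 2.64 and 2.19 in DMSO, one of the larger falls (log2 difference -0.91 ± 0.09, adjusted p = 8.3e-05). Ifngr1 fell from 75.4 ± 0.39997 to 49.2 ± 3.02 FPKM (log2 difference -0.61 ± 0.05, adjusted p = 3.8e-05). Csf3r, the G-CSF receptor, went from 11.8 ± 0.585 to 9.03 ± 0.473 FPKM (log2 difference -0.36 ± 0.06, adjusted p = 0.0011).

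Cell cycle genes fell together by modest amounts. The 2779 genes with the highest mean level had a median difference of -0.13. The G1/S and replication list had 21 of 23 members lower and 1 higher (0 higher with WT as 1 sample), with a median of -0.44, against a median of -0.03 for all genes. Rrm2, the subunit of ribonucleotide reductase that rises in S phase, was at 83.6, 82.9 and 83.5 FPKM in WT and 53.3, 50.5 and 49.002 in DMSO (log2 difference -0.70 ± 0.04, adjusted p = 8.1e-06). Mcm2 of the replicative helicase went from 85.2 ± 0.566 to 55.1 ± 1.57 FPKM (log2 difference -0.62 ± 0.04, adjusted p = 9.1e-06). Thymidine kinase, Tk1, went from 26.6 ± 1.86 to 13.8 ± 1.38 FPKM (log2 difference -0.90 ± 0.08, adjusted p = 4.6e-05), one of the 15 largest falls. Of 20 G2/M genes 18 were lower and 0 higher (median -0.34). Top2a, the mitotic topoisomerase, was at 96.7, 98.5 and 101 and 66.4, 68.5 and 66.2 FPKM (log2 difference -0.55 ± 0.04, adjusted p = 1.8e-05). Aurkb, a mitotic kinase, was at 51.1 ± 0.6996 and 35.4 ± 1.905 (adjusted p = 6.4e-05). No DMSO library reached a WT library in Rrm2 or Top2a. With WT as 1 sample 14 and 12 members of these lists were still lower. In bulk RNA, fewer cells in a phase or of a type and less RNA in each cell cannot be told apart.

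The cycle inhibitors Cdkn1a and Cdkn1c and most p53 targets tested were higher. Cdkn1a (p21) was at 57.02, 59.3 and 56.4 FPKM in WT and 101, 92.5 and 97.1 in DMSO (log2 difference 0.74 ± 0.05, adjusted p = 9.1e-06). Cdkn1c (p57) rose from 1.91 ± 0.187 to 4.13 ± 0.532 FPKM (log2 difference 0.82 ± 0.09, adjusted p = 2.1e-04). Of 5 CDK inhibitors tested 3 were higher and 0 lower (median 0.29; 2 with WT as 1 sample). Of the 16 p53 targets tested 11 were higher and 0 lower (6 with WT as 1 sample), with a median of 0.35. Mdm2, the ligase that degrades p53, went from 23.1 ± 0.6598 to 40.3 ± 2.65 FPKM (log2 difference 0.77 ± 0.05, adjusted p = 1.8e-05). Ccng1 (cyclin G1) went from 27.2 ± 0.262 to 37.7 ± 1.54 FPKM (log2 difference 0.46 ± 0.04, adjusted p = 7.4e-05). The largest was Perp, a tetraspan membrane protein, at 4.08, 4.12 and 3.73 FPKM in WT and 32.1, 35.9 and 32.5 in DMSO (log2 difference 2.79 ± 0.06, adjusted p = 3.9e-08). In the BCL2 family the BH3-only killer Bcl2l11 (BIM) rose from 1.69 ± 0.147 to 5.66 ± 0.861 FPKM (log2 difference 1.300 ± 0.10, adjusted p = 3.2e-05). Bbc3 (PUMA) went from 7.38 ± 0.6503 to 13.6 ± 0.768 FPKM (log2 difference 0.80 ± 0.07, adjusted p = 4.9e-05), while Bcl2 itself fell from 6.44 ± 0.201 to 4.08 ± 0.203 FPKM (log2 difference -0.55 ± 0.06, adjusted p = 1.3e-04). Mcl1, a survival member, was at 67.4, 66.8 and 67.5 and 83.6, 80.5 and 79.5 FPKM (log2 difference 0.27 ± 0.04, adjusted p = 5.9e-04, lost with WT as 1 sample). The family count was 7 higher and 1 lower of 13 (2 and 1 with WT as 1 sample).

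Genes of cell growth fell together. For comparison, the median of the 2779 genes with the highest mean level was -0.13. In the list of nucleolar ribosome biogenesis 38 of 39 members were lower and 0 higher, with a median of -0.37 and a range of summed level of 1801 to 1840 FPKM in WT and 1291 to 1404 in DMSO. Ncl (nucleolin) was at 147, 154 and 148 FPKM in WT and 106, 100.3 and 98.6 in DMSO (log2 difference -0.55 ± 0.05, adjusted p = 3.8e-05). Npm1 (nucleophosmin) went from 198 ± 5.897 to 137 ± 8.01 FPKM (log2 difference -0.53 ± 0.05, adjusted p = 1.1e-04). Dkc1 (dyskerin, which modifies ribosomal RNA) went from 46.1 ± 2.83 to 28.6 ± 0.455 FPKM (log2 difference -0.67 ± 0.05, adjusted p = 2.7e-05). With WT as 1 sample 25 were lower. Of 20 cytosolic aminoacyl-tRNA synthetases 17 were lower and 0 higher (median -0.35). Vars, for valine, went from 78.1 ± 1.296 to 47.99 ± 3.26 FPKM (log2 difference -0.69 ± 0.05, adjusted p = 2.7e-05). Dars, for aspartate, went from 67.02 ± 0.441 to 46.97 ± 1.24 FPKM (log2 difference -0.50 ± 0.04, adjusted p = 2.7e-05). In the Myc network 4 of 10 genes were higher and 2, Myc and Mlx, lower (2 and 2 with WT as 1 sample; median 0.03). The Myc antagonist Mxd4 rose from 11.7 ± 0.222 to 18.2 ± 1.49 FPKM (log2 difference 0.59 ± 0.06, adjusted p = 1.3e-04). Mxd1, another, rose from 5.59 ± 0.00845 to 8.07 ± 0.3601 FPKM (log2 difference 0.46 ± 0.05, adjusted p = 2.0e-04).

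Amino acid and mitochondrial genes were mostly lower. So were many abundant genes: of the 2779 with the highest mean level 1328 were lower, with a median of -0.13. The unfolded protein list was close to that median. ATF4 is the factor that answers amino acid shortage, and its target list split, 7 higher and 14 lower of 23, with a median of -0.35. Serine and one-carbon enzymes were lower. Shmt2, which splits serine to glycine, went from 124 ± 0.939 to 79.1 ± 4.498 FPKM (log2 difference -0.64 ± 0.05, adjusted p = 2.6e-05). Mthfd2, of mitochondrial folate, fell from 68.6 ± 0.404 to 42.6 ± 3.53 FPKM (log2 difference -0.68 ± 0.06, adjusted p = 4.8e-05). Psph, the last step of serine synthesis, fell from 25.97 ± 0.769 to 16.5 ± 0.8198 FPKM (log2 difference -0.62 ± 0.05, adjusted p = 3.2e-05). Chac1, which degrades glutathione, was at 8.52, 8.27 and 8.27 FPKM in WT and 3.93, 3.93 and 4.199 in DMSO (log2 difference -0.90 ± 0.05, adjusted p = 7.3e-06). Atf4 itself went from 224 ± 0.0776 to 172 ± 15.8 FPKM (adjusted p = 0.0014, lost with WT as 1 sample). Those that rose were Slc7a11 (above), Cebpb, Ddit3, Nupr1, Slc3a2, Trib3 and Atf5, the last 2 lost with WT as 1 sample. Cebpb, a myeloid bZIP factor, went from 78.3 ± 0.0396 to 132 ± 14.4 FPKM (log2 difference 0.74 ± 0.07, adjusted p = 8.6e-05). Ddit3, also called CHOP, went from 12.3 ± 0.5704 to 21.9 ± 3.61 FPKM (log2 difference 0.77 ± 0.10, adjusted p = 4.4e-04). In the unfolded protein list 3 of 19 were higher and 8 lower (1 and 1 with WT as 1 sample; median -0.12). Calr (calreticulin) went from 1007 ± 11.4 to 757 ± 30.7 FPKM (adjusted p = 5.7e-04, lost with WT as 1 sample). Edem1, of ER-associated degradation, went from 39.1 ± 0.407 to 55.01 ± 2.49 FPKM (log2 difference 0.48 ± 0.04, adjusted p = 6.5e-05). For oxidative phosphorylation 18 of 19 were lower and 0 higher (median -0.30), but 6 with WT as 1 sample. Atp5b, the beta subunit of ATP synthase, was at 593, 595 and 598 and 501, 466 and 457 FPKM (log2 difference -0.33 ± 0.05, adjusted p = 0.0013, lost with WT as 1 sample). Cyc1, cytochrome c1, fell from 119 ± 1.02 to 87.5 ± 6.798 FPKM (log2 difference -0.44 ± 0.06, adjusted p = 3.6e-04). In DMSO replicate 1 this list summed highest of the DMSO group; the range was 2044 to 2329 FPKM in DMSO and 2604 to 2630 in WT.

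**Figure D4:**
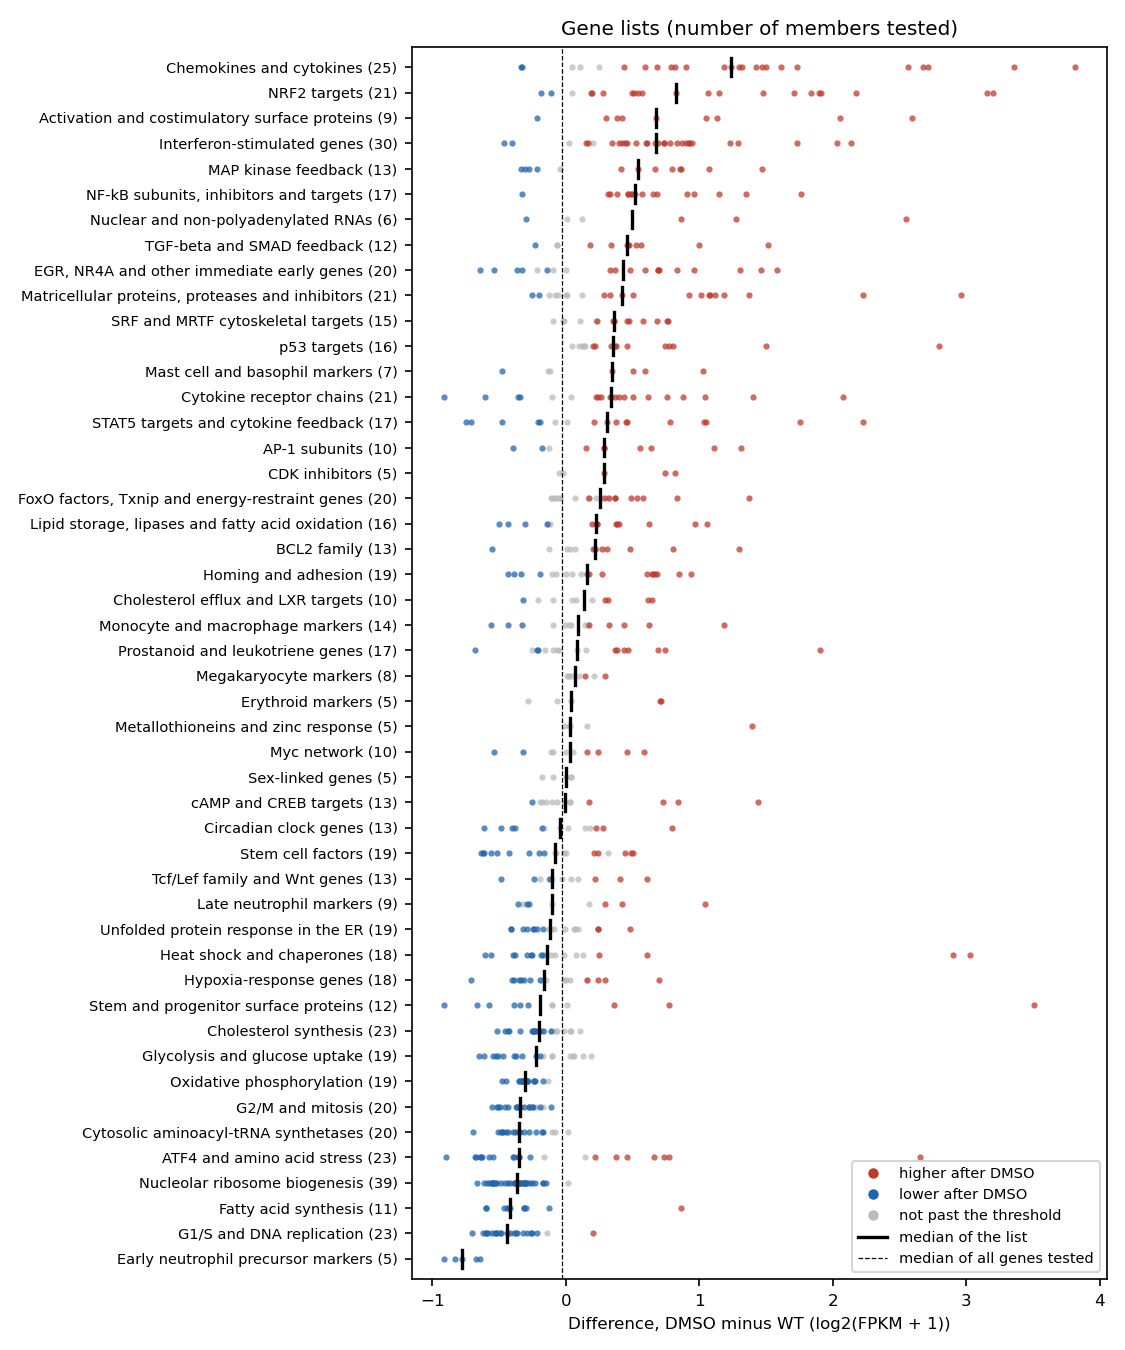
DMSO minus WT difference of log2(FPKM + 1) for each tested member of the lists with at least 5 members tested, ordered by the list's median (black bar). Chemokines and cytokines (median 1.24) and NRF2 targets (0.82) are at the top, and G1/S genes (-0.44) and early neutrophil precursor markers (-0.78) at the bottom; the dashed line is the median of all genes, -0.03.

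Genes of glycolysis and lipid synthesis were mostly lower, and most of lipid storage and oxidation higher. Falls were common among abundant genes in general: of the 2779 with the highest mean level 1328 were lower, with a median of -0.13. Of 19 glycolysis genes 11 were lower and 0 higher (median -0.23; 7 lower with WT as 1 sample). The phosphofructokinase Pfkl was at 98.8, 94.04 and 103 FPKM in WT and 70.5, 59.2 and 58.4 in DMSO (log2 difference -0.65 ± 0.08, adjusted p = 2.1e-04). The hexokinase Hk3 went from 108 ± 1.17 to 73.5 ± 4.33 FPKM (log2 difference -0.55 ± 0.05, adjusted p = 6.1e-05), while Aldoa, the list's most abundant gene, was at 604 ± 26.8 and 628 ± 45.3 (adjusted p = 0.53). Fatty acid synthesis had 10 of 11 lower and 1 higher (median -0.42). Scd2, a desaturase, was at 134, 124 and 137 and 90.97, 86.7 and 82.8 FPKM (log2 difference -0.60 ± 0.05, adjusted p = 6.2e-05). Elovl6, an elongase, fell from 8.06 ± 0.272 to 4.99 ± 0.2098 FPKM (log2 difference -0.60 ± 0.06, adjusted p = 7.0e-05); Acss2, which makes acetyl-CoA from acetate, rose from 2.83 ± 0.124 to 5.99 ± 0.427 FPKM (log2 difference 0.87 ± 0.07, adjusted p = 3.1e-05). For cholesterol synthesis 15 of 23 were lower and 0 higher (median -0.20), but 9 to 15 when 1 library was left out and 3 with WT as 1 sample. Nsdhl, a sterol dehydrogenase, fell from 16.7 ± 0.606 to 12.1 ± 0.753 FPKM (log2 difference -0.43 ± 0.06, adjusted p = 3.7e-04). Of 16 genes of lipid storage and fatty acid oxidation 10 were higher and 4 lower (5 and 0 with WT as 1 sample; median 0.23). Plin2, which coats lipid droplets, was at 50.8, 53.6 and 54.6 FPKM in WT and 116, 108 and 109.8 in DMSO (log2 difference 1.05 ± 0.05, adjusted p = 1.5e-06). Lipoprotein lipase, Lpl, was at 17.7 ± 0.888 and 35.6 ± 2.45 (log2 difference 0.97 ± 0.06, adjusted p = 9.2e-06). Cholesterol efflux genes were 4 higher and 1 lower of 10 (2 and 1 with WT as 1 sample; median 0.14), among them Abcg1 (from 3.58 ± 0.356 to 6.14 ± 0.132 FPKM, log2 difference 0.64 ± 0.07, adjusted p = 1.6e-04).

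Hypoxia and circadian genes differed in both directions, as did all genes tested (26.0% higher and 30.7% lower). In both lists the share that was higher did not exceed that of all genes. Of 18 hypoxia-response genes 4 were higher and 8 lower (median -0.17; 1 and 5 with WT as 1 sample). Pdk1, which closes the entry of pyruvate to mitochondria, fell from 25.7 ± 1.22 to 15.3 ± 0.666 FPKM (log2 difference -0.71 ± 0.05, adjusted p = 2.2e-05). Ndrg1 rose from 21.7 ± 1.75 to 35.7 ± 0.522 FPKM (log2 difference 0.70 ± 0.06, adjusted p = 4.5e-05). In the list of FoxO factors and genes that restrain growth 10 of 20 were higher and 0 lower (median 0.26; 3 higher with WT as 1 sample). Ypel3 was at 12.3, 10.8 and 10.5 FPKM in WT and 32.4, 29.1 and 30.2 in DMSO (log2 difference 1.37 ± 0.07, adjusted p = 2.3e-06). The insulin receptor substrate Irs2 went from 2.92 ± 0.179 to 6.05 ± 1.19 FPKM (log2 difference 0.83 ± 0.12, adjusted p = 5.6e-04). Of 13 circadian genes 3 were higher and 5 lower (1 and 1 with WT as 1 sample; median -0.04): the repressor Bhlhe40 rose from 18.96 ± 0.693 to 33.6 ± 1.33 FPKM (log2 difference 0.79 ± 0.05, adjusted p = 7.3e-06). Hlf, a PAR bZIP factor of stem cells, fell from 4.18 ± 0.344 to 2.398 ± 0.242 FPKM (log2 difference -0.61 ± 0.08, adjusted p = 4.2e-04).

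Stem cell genes moved both ways. Of 19 transcription factors and other stem cell regulators 5 were higher and 9 lower (median -0.08; 2 and 6 with WT as 1 sample), against 26.0% higher and 30.7% lower of all genes, so the share that rose is near that of all genes. Myb, needed by progenitors, was at 91.1, 91.8 and 94.5 FPKM in WT and 60.1, 61.1 and 56.7 in DMSO (log2 difference -0.63 ± 0.04, adjusted p = 1.5e-05). Hoxa9, a homeobox factor of stem cells and leukemia, was at 8.94, 10.2 and 8.89 and 6.06, 5.72 and 5.46 FPKM (log2 difference -0.62 ± 0.07, adjusted p = 1.6e-04). Erg, an ETS factor, went from 16.7 ± 0.559 to 11.4 ± 0.676 FPKM (log2 difference -0.51 ± 0.05, adjusted p = 1.3e-04). Gata2, the other way, was at 26.6, 29.1 and 26.9 and 39.6, 38.3 and 40.7 FPKM (log2 difference 0.51 ± 0.05, adjusted p = 7.7e-05). Id2, a helix-loop-helix inhibitor, rose from 20.4 ± 1.104 to 28.2 ± 2.57 FPKM (log2 difference 0.44 ± 0.07, adjusted p = 0.001). Meis1 and Runx1 did not pass. Of 12 surface proteins of stem and progenitor cells 3 were higher and 6 lower (median -0.19; 2 and 2 with WT as 1 sample). Procr, described above, rose, and Thy1 went from 4.38 ± 0.738 to 8.14 ± 0.756 FPKM (log2 difference 0.77 ± 0.10, adjusted p = 4.6e-04). Cd34, a sialomucin of progenitors, was at 64.03, 67.2 and 65.04 FPKM in WT and 42.7, 40.5 and 39.5 in DMSO (log2 difference -0.67 ± 0.04, adjusted p = 1.2e-05). Ly6a, with adjusted p = 0.028, lost with WT as 1 sample, lost its call when a library was left out (highest adjusted p = 0.094), and Kit did not pass (adjusted p = 0.24). Slamf1, Esam and Tek were under the minimum level.

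Integrins and other homing genes were 10 higher and 4 lower of 19, with a median of 0.16 (7 and 1 with WT as 1 sample). Itga5, the alpha chain of the fibronectin receptor, was at 11.3, 10.6 and 11.2 FPKM in WT and 20.6, 22.6 and 22.9 in DMSO (log2 difference 0.94 ± 0.05, adjusted p = 6.0e-06). Itgb7 rose from 30.2 ± 1.15 to 55.3 ± 2.53 FPKM (log2 difference 0.85 ± 0.05, adjusted p = 6.2e-06). Cd44, the receptor of hyaluronan and osteopontin, went from 40.3 ± 0.511 to 61.9 ± 4.13 FPKM (log2 difference 0.61 ± 0.05, adjusted p = 5.2e-05). Vcam1, the ligand of integrin VLA-4, fell from 4.91 ± 0.244 to 3.39 ± 0.161 FPKM (log2 difference -0.43 ± 0.06, adjusted p = 6.9e-04). Cxcr4, the receptor of Cxcl12 that retains stem cells in the marrow niche, went from 46.7 ± 1.16 to 40.8 ± 1.696 FPKM (adjusted p = 0.007, lost with WT as 1 sample).

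Prostanoid, cAMP and Wnt genes, close to the study's own question, differed in both directions, as did all genes tested (26.0% higher and 30.7% lower). In the cAMP and Wnt lists the counts in either direction were near or below those shares. Of 17 prostanoid and leukotriene genes 7 were higher and 3 lower (median 0.09; 6 and 1 with WT as 1 sample). Ptgs2 (COX-2, the inducible enzyme of prostaglandin synthesis) was at 0.612, 0.755 and 0.602 FPKM in WT and 4.33, 5.33 and 6.01 in DMSO (log2 difference 1.902 ± 0.11, adjusted p = 5.5e-06). Ptger4, a receptor for PGE2 coupled to cAMP, went from 2.502 ± 0.356 to 4.83 ± 0.0414 FPKM (log2 difference 0.74 ± 0.08, adjusted p = 1.8e-04). Ptger1, coupled to calcium, went from 21.8 ± 0.959 to 28.5 ± 0.698 FPKM (log2 difference 0.37 ± 0.05, adjusted p = 3.0e-04). Of 13 cAMP and CREB targets 4 were higher and 1 lower (3 and 0 with WT as 1 sample; median -0.0022), with the CREB repressor Crem at 0.912, 0.9998 and 0.827 and 3.86, 4.52 and 4.17 FPKM (log2 difference 1.44 ± 0.08, adjusted p = 4.4e-06). Rgs1 and Rgs2, brakes on G protein signalling, went from 11.95 ± 1.12 to 22.2 ± 0.434 FPKM and from 8.76 ± 0.402 to 15.2 ± 0.794 FPKM (adjusted p = 2.9e-05 and adjusted p = 2.9e-05). Of 13 Tcf/Lef and Wnt genes 3 were higher and 3 lower (1 and 1 with WT as 1 sample; median -0.10); Tcf7 did not pass (adjusted p = 0.43) and the target Axin2 was under the minimum. For TGF-beta signalling 9 of 12 were higher and 1 lower (median 0.46; 6 and 0 with WT as 1 sample). The feedback gene Pmepa1 went from 1.15 ± 0.0899 to 5.14 ± 0.198 FPKM (log2 difference 1.51 ± 0.07, adjusted p = 1.5e-06). Skil, a SMAD corepressor, rose from 3.16 ± 0.0586 to 7.36 ± 1.19 FPKM (log2 difference 0.996 ± 0.10, adjusted p = 1.1e-04). The inhibitory Smad7 rose from 3.12 ± 0.135 to 4.71 ± 0.177 FPKM (log2 difference 0.47 ± 0.06, adjusted p = 3.6e-04).

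Eosinophil granule genes and the early neutrophil precursor marker Mpo were among the largest falls. Prg2 (major basic protein of eosinophil granules) was at 159.9, 168 and 171 FPKM in WT and 64.1, 52.4 and 55.7 in DMSO, a 2.896-fold ratio (log2 difference -1.52 ± 0.07, adjusted p = 2.1e-06). Its homologue Prg3 was at 12.7, 13.8 and 13.5 and 4.74, 2.92 and 3.89 FPKM (log2 difference -1.58 ± 0.12, adjusted p = 3.0e-05). Epx (eosinophil peroxidase) was at 10.7, 8.93 and 10.1 and 3.22, 3.35 and 4.03 (log2 difference -1.27 ± 0.09, adjusted p = 1.7e-05). These 3 are among the 8 genes at least 2-fold lower; the other eosinophil markers, Ear1, Ear2 and Il5ra, were under the minimum level. The eosinophil list summed to 186 to 196 FPKM in WT and 59.5 to 72.8 in DMSO. Mpo (myeloperoxidase of neutrophil granules), among the most abundant messages, was at 2556, 2389.8 and 2552 FPKM in WT and 1472, 1268 and 1252 in DMSO (log2 difference -0.91 ± 0.09, adjusted p = 7.2e-05). Ctsg (cathepsin G) went from 1226 ± 13.03 to 691 ± 69.3 FPKM (log2 difference -0.83 ± 0.08, adjusted p = 7.5e-05). Ms4a3, a membrane marker of granulocyte and monocyte progenitors, went from 348 ± 4.99 to 203 ± 17.1 FPKM (log2 difference -0.78 ± 0.06, adjusted p = 3.9e-05). All 5 early neutrophil precursor markers were lower (median -0.78; 4 with WT as 1 sample), and together they made up 2.702% to 2.85% of all FPKM in WT and 1.602% to 1.802% in DMSO, highest in DMSO replicate 1. Gfi1, a repressor needed for neutrophil differentiation, fell from 35.9 ± 1.31 to 21.01 ± 0.614 FPKM (log2 difference -0.75 ± 0.04, adjusted p = 7.3e-06). The largest falls also held Myl10, a myosin light chain, at 48.96, 48.8 and 46.8 FPKM in WT and 22.7, 22.7 and 19.9 in DMSO (log2 difference -1.11 ± 0.06, adjusted p = 3.1e-06). Chdh (choline dehydrogenase) went from 13.003 ± 0.487 to 5.77 ± 0.309 FPKM (log2 difference -1.05 ± 0.06, adjusted p = 4.0e-06). Hddc2 fell from 13.5 ± 0.582 to 6.06 ± 1.198 FPKM (log2 difference -1.05 ± 0.11, adjusted p = 1.3e-04). Gatm, which starts creatine synthesis, fell from 48.3 ± 1.28 to 25.2 ± 1.89 FPKM (log2 difference -0.91 ± 0.06, adjusted p = 8.5e-06). Angpt1, the ligand of Tie2, went from 11.2 ± 0.925 to 5.67 ± 0.304 FPKM (log2 difference -0.87 ± 0.07, adjusted p = 3.2e-05). Khdrbs3, Cox6a2 and Tst, the others of the 15 largest falls, fell by 0.95, 0.93 and 0.87 (log2).

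Markers of other cell types were present in both groups, and their part in the differences was not tested. Of all genes tested 26.0% were higher and 30.7% lower, and the megakaryocyte and MHC class II counts did not exceed those shares. In either direction 57.1% of the monocyte and macrophage markers and 66.7% of the 9 late neutrophil markers passed. For lists this short, both are near the 56.6% of all genes. Monocyte and macrophage markers were 5 higher and 3 lower of 14 (3 and 2 with WT as 1 sample; median 0.09). They summed to 903 to 938 FPKM in WT and 890.4 to 1037 in DMSO, which overlap. Cd14 rose from 19.9 ± 1.31 to 46.6 ± 1.63 FPKM (log2 difference 1.19 ± 0.06, adjusted p = 1.9e-06). F13a1, a clotting factor of monocytes, fell from 78.2 ± 4.86 to 52.7 ± 2.31 FPKM (log2 difference -0.56 ± 0.06, adjusted p = 1.0e-04). Lyz2 (lysozyme) was at 454 ± 13.6 and 468 ± 50.5 (adjusted p = 0.69). Late neutrophil markers were 3 higher and 3 lower of 9 (2 and 0 with WT as 1 sample; median -0.10). They summed to 1492 to 1508 FPKM in WT and 1561 to 1848 in DMSO. Mmp8, neutrophil collagenase, rose from 11.9 ± 0.419 to 25.5 ± 0.134 FPKM (log2 difference 1.04 ± 0.04, adjusted p = 9.9e-07). Ltf, Camp and Ngp of the same list fell, each call lost with WT as 1 sample. Camp went from 49.2 ± 2.01 to 38.4 ± 5.72 FPKM (log2 difference -0.36 ± 0.095, adjusted p = 0.012). Mast cell and basophil markers were 4 higher and 1 lower of 7 (2 and 1 with WT as 1 sample; median 0.35). They summed to 139 to 141 FPKM in WT and 181 to 201 in DMSO. Mcpt8, of basophils, rose from 40.4 ± 2.81 to 83.3 ± 7.57 FPKM (log2 difference 1.02 ± 0.07, adjusted p = 2.1e-05). Cpa3, of mast cells, fell from 24.6 ± 1.17 to 17.4 ± 0.898 FPKM (log2 difference -0.48 ± 0.05, adjusted p = 1.9e-04). Megakaryocyte markers were 2 higher and 0 lower of 8 (0 with WT as 1 sample; median 0.07), summing to 220.1 to 243 and 235 to 293 FPKM. Erythroid markers were 2 higher and 0 lower of 5 (median 0.04), and summed to 16.9 to 17.9 FPKM in WT and 23.7 to 27.1 in DMSO. The globin genes Hbb-b1 and Hba-a1, which have close copies, went from 9.26 ± 0.608 to 15.9 ± 1.88 FPKM and from 2.33 ± 0.565 to 4.39 ± 0.485 FPKM. Klf1 and Epor did not pass, and Alas2 was under the minimum. Of the dendritic and MHC class II markers 1 of 4, Cd74, was higher, a call lost when a library was left out and with WT as 1 sample. They summed to 133 to 149 FPKM in WT and 129 to 172 in DMSO, which overlap. Of the B lymphoid markers Cd79b fell from 7.72 ± 0.326 to 5.55 ± 0.222 FPKM (log2 difference -0.41 ± 0.06, adjusted p = 4.9e-04) and Cd79a did not pass, and Pax5, Ebf1 and Vpreb1 were under the minimum; the list summed to 9.85 to 12.7 FPKM in WT and 6.57 to 7.29 in DMSO. Of the T and NK cell markers Nkg7 alone was tested, from 67.3 ± 0.331 to 42.2 ± 3.99 FPKM (log2 difference -0.66 ± 0.06, adjusted p = 7.8e-05). The T cell genes Cd3d, Cd3e and Cd3g were at 0.00756, 0.0355 and 0.129 FPKM in WT and 0.0232, 0.0431 and 0.0457 in DMSO. No stromal or endothelial marker reached the minimum; they summed to 0.594 to 0.729 FPKM in WT and 1.18 to 1.58 in DMSO. Of the 5 sex-linked genes Xist was at 10.1 ± 0.385 and 10.5 ± 1.25 FPKM (adjusted p = 0.69). The Y-linked Ddx3y was at 8.45 ± 0.646 and 7.35 ± 0.793 (adjusted p = 0.096), so both were found in both groups.

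The same genes were read in the drug-treated and Tcf1/Lef1-deficient cells, as levels side by side. PGE1 and PGE2 libraries share the 6 h treatment time with DMSO and were also compared with DMSO in the study, so no difference is drawn here; PGE2 has 2 libraries and the other groups 3. Procr was at 1.01 ± 0.11005 FPKM in WT, 21.8 ± 0.824 in DMSO, 58.8 ± 9.18 in PGE1, 13.2 ± 1.56 in PGE2 and 0.345 ± 0.156 in dKO. Hmox1 was at 193 ± 9.36 in DMSO, 444 ± 83.1 in PGE1, 145 ± 11.2 in PGE2 and 3.78 ± 1.13 in dKO, and Nqo1 at 19.7 ± 1.29, 56.2 ± 14.3, 13.7 ± 0.154 and 1.1999 ± 0.4801. In these 3 genes all treated groups lay above WT. Hspa1b was at 9.43 ± 1.29 in DMSO, 28.6 ± 31.7 in PGE1, where 1 library was far above the other 2, and 6.73 ± 0.549 in PGE2. Of other genes that rose with DMSO, Mmp10 and Perp were near or below their WT level in PGE1 and PGE2 cells, whereas Spp1 was above it in both. Mmp10 was at 19.9 ± 0.751 in DMSO, 0.0459 ± 0.0409 in PGE1 and 1.19 ± 0.308 in PGE2, against 0.872 ± 0.356 in WT. Perp was at 33.5 ± 2.06, 3.69 ± 0.167 and 3.12 ± 0.618, against 3.98 ± 0.216 in WT. Cxcl3 was at 60.6 ± 3.05, 6.45 ± 0.6705 and 37.7 ± 3.69, against 5.03 ± 0.524 in WT. Spp1 was at 637 ± 5.46, 178 ± 32.9 and 130.1 ± 9.14, against 44.3 ± 1.75 in WT. Mpo was at 2499 ± 95.01 in WT, 1331 ± 122 in DMSO, 296 ± 172 in PGE1, 1946 ± 32.02 in PGE2 and 3150.4 ± 299 in dKO. In the same order Prg2 was at 166 ± 5.61, 57.4 ± 6.07, 8.43 ± 9.81, 73.8 ± 6.92 and 174 ± 20.9. Myc was at 68.8 ± 3.63 in DMSO, 13.96 ± 6.67 in PGE1 and 80.3 ± 0.788 in PGE2, against 100.03 ± 1.62 in WT.

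**Figure D5:**
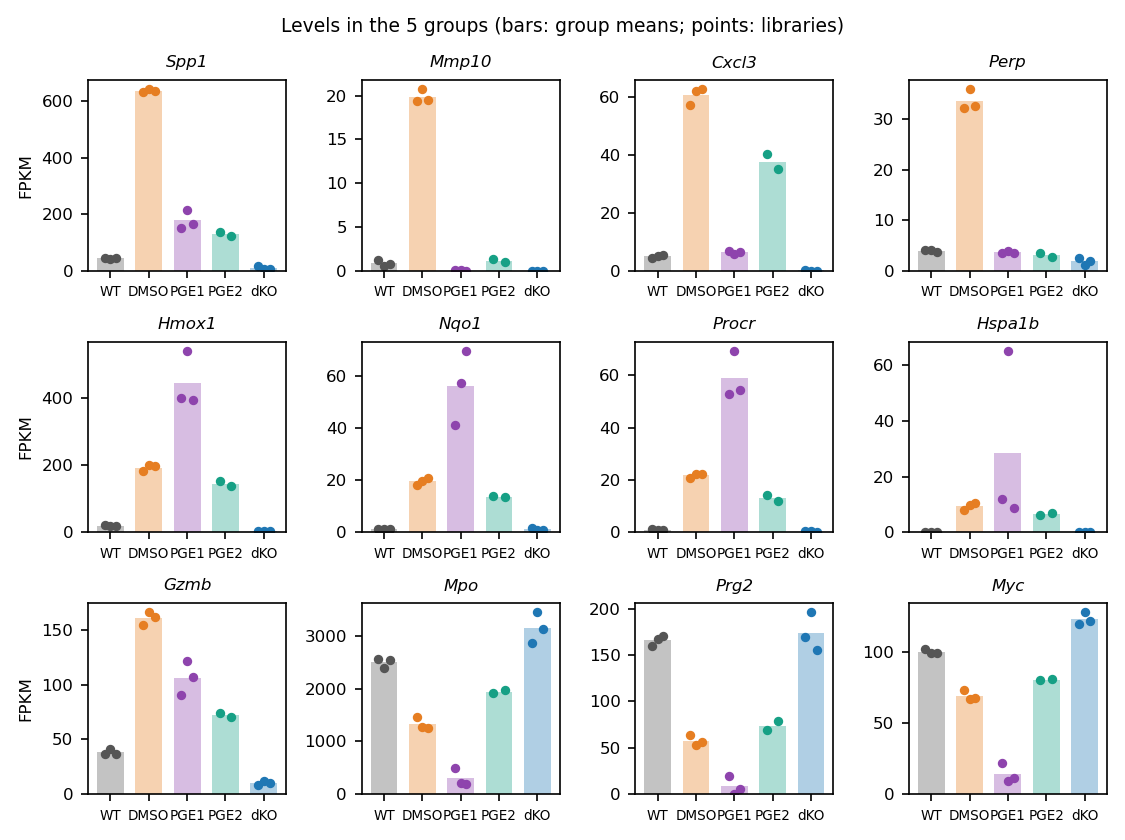
FPKM of 12 genes in each library (points) of the 5 groups, with bars at the group means and axes from 0. Procr, Hmox1 and Nqo1 are above WT in DMSO, PGE1 and PGE2 alike, whereas Mmp10 and Perp are high in the DMSO libraries and low in WT, PGE1 and PGE2.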

How the data were processed

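The deposited values are FPKM, made by the authors, 1 file per library with 24463 gene symbols; CASAVA 1.8, TopHat, Cufflinks and build mm9 are named, per the submitters' processing notes. Annotation, strand handling, read length and the treatment of shared reads are not stated there. Groups come from the sample titles. The 11115 genes that reached 1 FPKM on average in the 6 libraries went into limma 3.58.1 (R 4.3.3). Its linear model with a trended empirical Bayes variance was fitted to log2(FPKM + 1), two-sided, with Benjamini-Hochberg adjustment over all genes tested and a threshold of 0.05. Ratios beside FPKM values divide the group means. No set test was run: lists are given by counts and medians. The share of false calls among the genes past the threshold was not tested for these libraries, and it may lie above the threshold. Recovery of small differences was not tested on these libraries either. Python 3.11.15 with pandas 2.3.3, NumPy 2.4.6, SciPy 1.17.1 and matplotlib 3.10.9 did the rest.

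FPKM values stepped by whole reads (in 100% of 19057 genes with reads, within 0.001 of a read), which gave the depths. Depth bears on counting error only, which mainly limits genes under a few FPKM. Between replicates the variance was 1.86 to 17.4 times that of counting. Alternatives were a pseudocount of 0.1, a minimum of 5 FPKM or none, quantile and median-of-ratios scaling, all 14 libraries in 1 fit, a replicate block, limma's voom on the recovered reads, and each library left out.

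The comparison, its 53 gene lists and its tests were chosen with earlier results of these data known. Named were the 15 largest rises and 15 largest falls (past the threshold, at least 5 FPKM in the higher group, libraries of the groups apart, symbols of clones and predicted genes skipped), of each list up to 5 members with the smallest p, the most abundant and those running against it, members of lists of at most 12 genes, and Tcf7, Lef1, Kit and Ly6a. Other genes, among them Perp, Sqstm1, Socs1 and the small and noncoding RNAs, were named after their values were seen. Some list members that the rule names are not reported here.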

Additional observations from a re-analysis of the deposited data

How the results depend on the processing

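The counts of genes past the threshold were within 1.5 times of 6296 under every alternative except the added one with the WT mean as 1 sample (2505, with 1383 higher and 1122 lower). Leaving out 1 library gave 5293 to 7200 genes (2481 to 3269 higher, 2782 to 3931 lower) and 313 to 337 at least 2-fold (305 to 325 higher, 7 to 12 lower), the upper ends without DMSO replicate 1. The counts at least 2-fold depended on the scale for low genes: 509 with voom on recovered reads (476 higher, 33 lower), 177 (171 higher) at a minimum of 5 FPKM, and 30 lower with a pseudocount of 0.1 and 13 lower with quantile normalization, against 325, 317 and 8. The replicate numbers gave no sign of pairing the samples, though so few libraries, with DMSO replicate 1 apart from its group, could hardly show it. Deviations of same-numbered libraries correlated at -0.0064, -0.0158 and 0.0557, and not every library correlated best with its own number. The fit with the replicate block gave 6175 genes. Quantile and median-of-ratios scaling put the median of all genes at -0.06 and -0.03 (log2). Of 202 named genes past the threshold, 195 passed in all 6 leave-one-out fits, 200 under the replicate block and 174 with WT as 1 sample; Mt1, not past the threshold, was between -0.0799 (without DMSO replicate 1) and 0.085 with a library left out. Of 52 list medians, 7 turned sign with a library left out, all of them under 0.1 from 0: circadian clock genes (-0.1312 to 0.0192), the Myc network (-0.0132 to 0.1164), cAMP targets (-0.0378 to 0.0245), monocyte markers (-0.0038 to 0.1264), erythroid markers (-0.0047 to 0.0779), MHC class II markers (-0.1715 to 0.0258) and sex-linked genes (-0.0828 to 0.0522). So did the Myc network (-0.0023), erythroid markers (-0.0964) and sex-linked genes (-0.1216) with quantile normalization and cAMP targets (0.002) with median-of-ratios scaling. The cause was not tested. Depth limits genes under a few FPKM, where 1 FPKM is few reads in short genes.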

Other observations

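Some noncoding transcripts rose strongly; the genes in this paragraph were named after their values were seen. Neat1, the scaffold RNA of nuclear paraspeckles, was at 4.04, 4.39 and 3.89 FPKM in the WT libraries and 27.4, 29.9 and 29.5 in the DMSO libraries (log2 difference 2.55 ± 0.06, adjusted p = 5.2e-08). Malat1, of nuclear speckles, rose from 40.1 ± 3.64 to 99.9 ± 20.1 FPKM (log2 difference 1.28 ± 0.14, adjusted p = 1.5e-04). Of 6 genes tested in the list of nuclear and non-polyadenylated RNAs 3 were higher and 1 lower (3 and 0 with WT as 1 sample). Mir22hg, the host transcript of miR-22, was at 2.15, 2.17 and 1.79 and 13.97, 14.4 and 13.9 FPKM (log2 difference 2.31 ± 0.07, adjusted p = 1.4e-07), and the Mir22 entry inside it rose from 2.58 ± 0.845 to 15.2 ± 1.03 FPKM (adjusted p = 2.3e-05). The entries Mir147 and Mir24-1 went from 4.92 ± 1.12 to 30.7 ± 2.49 FPKM and from 1.06 ± 0.709 to 8.88 ± 3.59 FPKM (adjusted p = 2.9e-06 and adjusted p = 3.5e-04). Reads at such entries can be fragments of longer transcripts and need not come from mature miRNAs. Among 202 tested genes that RefSeq classes as miRNA, 30 were at least 2-fold higher and 1 at least 2-fold lower; among 10053 protein-coding genes the counts were 252 and 6, and among 271 long noncoding RNAs 6 and 0. The share at least 2-fold higher was 14.9% for miRNA entries and 2.21% for long noncoding RNAs, against 2.85% of all genes, and 36.6% and 39.1% passed the threshold in either direction, against 56.6%. Their reads were few, and short entries are the least precise on the FPKM scale.

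Entries of the stefin A cluster rose together. Reads can be shared between these near-identical copies, so a rise in each copy cannot be told from reads shared among them. Beside Stfa1 and Stfa2, Gm5483 was at 5.12, 3.55 and 4.16 FPKM in WT and 104, 97.7 and 93.7 in DMSO (log2 difference 4.24 ± 0.10, adjusted p = 5.2e-08), 2010005H15Rik at 2.21, 2.95 and 2.74 and 48.5, 46.5 and 50.98 (log2 difference 3.78 ± 0.08, adjusted p = 3.9e-08), and Gm5416 at 1.46, 0.531 and 0.718 and 27.6, 28.3 and 20.3 (log2 difference 3.81 ± 0.18, adjusted p = 2.3e-06). BC100530 went from 0.0924 ± 0.0385 to 17.8 ± 2.26 FPKM and Stfa3 from 0.0252 ± 0.0437 to 2.33 ± 0.613 FPKM. In the drug-treated cells Gm5483 was at 1.17 ± 0.225 FPKM (PGE1) and 13.4 ± 3.18 (PGE2). Other rises outside the lists were Emp1, an epithelial membrane protein (from 19.4 ± 0.359 to 94.7 ± 5.98 FPKM, log2 difference 2.23 ± 0.05, adjusted p = 5.2e-08), the lectin receptor Clec4d (from 21.1 ± 0.509 to 90.9 ± 2.53 FPKM, log2 difference 2.05 ± 0.04, adjusted p = 3.9e-08), the adhesion protein Tgfbi (from 23.7 ± 0.712 to 89.1 ± 3.08 FPKM, log2 difference 1.87 ± 0.04, adjusted p = 5.2e-08), the metalloproteinase Adam8 (from 46.6 ± 0.667 to 133 ± 6.18 FPKM, log2 difference 1.49 ± 0.05, adjusted p = 1.9e-07), placental growth factor, Pgf (from 2.21 ± 0.345 to 18.2 ± 2.204 FPKM, log2 difference 2.58 ± 0.10, adjusted p = 8.5e-07), and neuropeptide Y, Npy (from 3.37 ± 0.218 to 23.7 ± 1.55 FPKM, log2 difference 2.496 ± 0.06, adjusted p = 9.0e-08).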
